A study of Mus musculus with 8 samples.

Results

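The 39 clustered Hox genes of the mouse were described in leukemic bone marrow. They are the rows of the expression table whose symbol is Hox, a cluster letter from a to d and a number, 39 of 23997 genes: 11 in the Hoxa cluster, 10 in Hoxb, 9 in Hoxc and 9 in Hoxd. Antisense RNAs and microRNAs inside the clusters are not members. RNA sequencing covered 8 libraries of C57BL/6 marrow in 3 groups: AML1-ETO with Meis2 (AE+Meis2, 3 libraries, median latency 171 days), AML1-ETO9a with Meis2 (AE9a+Meis2, 3 libraries, 102 days) and AML1-ETO9a alone (AE9a, 2 libraries, 138 days). AML1-ETO is the fusion of the blood transcription factor RUNX1 with the corepressor RUNX1T1, AML1-ETO9a is its truncated splice form, and Meis2 is a homeobox gene of the TALE class. All groups share their history: donor marrow was harvested 4 days after 5-fluorouracil, grown with IL3, IL6 and SCF, transduced, and transplanted 48 hours later into lethally irradiated mice, whose marrow was sampled once leukemia had killed them. The marrow can also hold the recipient's own cells. The sources used here do not give the vector, its promoter or the animals behind each library, and no library analysed here is of untransduced marrow, so the comparisons are between leukemias. Since nothing ties a library to an animal, p-values reflect only how these libraries vary, which may be in part technical.

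Hox genes encode homeodomain transcription factors and sit in 4 clusters, ordered along each chromosome by paralog number. In the embryo they are switched on in that order and set position along the body axis. Trithorax proteins such as KMT2A (MLL) keep them on and Polycomb complexes keep them off, CDX factors and retinoic acid receptors act on them from above, and PBX and MEIS proteins of the TALE class bind DNA with their products. In blood, stem and early progenitor cells express mainly genes of the Hoxa and Hoxb clusters, which are shut down as cells mature. Leukemias with MLL fusions are known for high HOXA genes and MEIS1, and leukemias with AML1-ETO for low HOXA genes. Below, paralogs 1 to 4 are called anterior (12 genes), 5 to 8 central (11 genes) and 9 to 13 posterior (16 genes).

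The upstream sequences of 2 members are shown as a contrast: Hoxb4 was seen in every library and highest in AE9a+Meis2, and Hoxa9, the member best known from leukemia, stayed low. Each is the 250 bases before the gene's start in RefSeq (GRCm38.p6, the same build as mm10), 5′ to 3′ on the gene's strand. The windows are chr11:96318017-96318266 on the plus strand for Hoxb4 and chr6:52227371-52227620 on the minus strand for Hoxa9. The Hoxa9 window lies inside the longer Hoxa9 locus of GENCODE M21 (chr6:52223100-52231089). Capitals mark the homeodomain core TAAT on either strand.
Hoxb4: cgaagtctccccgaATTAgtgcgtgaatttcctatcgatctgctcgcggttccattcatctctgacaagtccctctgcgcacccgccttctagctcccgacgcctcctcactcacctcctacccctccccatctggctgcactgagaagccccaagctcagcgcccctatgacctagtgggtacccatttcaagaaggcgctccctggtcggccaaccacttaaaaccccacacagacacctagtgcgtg
Hoxa9: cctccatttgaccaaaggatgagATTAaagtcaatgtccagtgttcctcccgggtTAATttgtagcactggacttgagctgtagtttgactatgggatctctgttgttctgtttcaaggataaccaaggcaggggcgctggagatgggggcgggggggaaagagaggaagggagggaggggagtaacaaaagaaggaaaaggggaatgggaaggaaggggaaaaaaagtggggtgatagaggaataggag
The core occurred once upstream of Hoxb4 and at 2 places upstream of Hoxa9, and 54.9% of all 32851 RefSeq promoters of this length hold it. The motifs TGTGGT (RUNX, in 14.05% of promoters), TGACAG (MEIS, 15.9%), TGATTNAT (PBX with HOX, 2.82%) and CCAAT (NF-Y, 33.8%) were searched on both strands and not found in these 2 windows, which says only that these letters are absent there. Promoters of 22 members were in the table.

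The libraries differed in quality, and 1 did not match its label. Depth, estimated from the whole-fragment steps of low values, was 12.1% to 65.6% of that of the deepest library (AE9a+Meis2 replicate 2), lowest in AE9a replicate 1. Of 1543 genes from families silent in blood (olfactory and vomeronasal receptors, hair keratin-associated proteins and beta-defensins), 3.37% to 6.61% were above 0 in 6 libraries, but 84.1% of them had a value in AE9a+Meis2 replicate 3, and 72.1% did in AE9a replicate 1. Meis2 and Runx1t1 were 13.1 and 21.6 FPKM (fragments per transcript length and library size) in the library labelled AE+Meis2 replicate 1, against 38.2 and 81.5 FPKM of Meis2 and 223 and 218 FPKM of Runx1t1 in the other libraries of its group. Runx1t1 there lay within the 10.3 to 26.8 FPKM of the 5 libraries with AE9a, and Meis2 within the 6.99 to 13.2 FPKM of the AE9a group, so both transduced genes go against the label, and every value of AE+Meis2 below includes it unless stated. Pan-leukocyte markers (Ptprc, Spi1, Cd53, Coro1a and Itgb2) summed to 426 to 2633 FPKM, so all 8 libraries hold blood cells. In bulk marrow, fewer cells of a type and less RNA per cell cannot be told apart.

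Most members were close to silent. Of the 39 genes, 31 stayed under 1 FPKM in every library, 26 of them under 0.5, and Hoxa13 was listed at 0 throughout. The other 8 were Hoxa7, Hoxb2, Hoxb3, Hoxb4, Hoxb13, Hoxc4, Hoxc5 and Hoxc6. FPKM is scaled by transcript length, so levels can be set beside each other between genes. Summed over all members, the level was 2.32, 2.10 and 3.70 FPKM in the 3 AE+Meis2 libraries, 114, 18.2 and 17.3 in AE9a+Meis2, and 13.8 and 20.8 in AE9a (values here and below in order of replicate number). The 3 AE+Meis2 libraries were therefore below the 5 libraries with AE9a. In AE9a+Meis2 replicate 3 and AE9a replicate 1, however, genes of silent families had a mean of 0.461 and 0.597 FPKM each. The sums of 17.3 and 13.8 FPKM there cannot be told apart from that level, so the order rests on the other libraries. Without Hoxb2, which had an extreme value in 1 library, the sums in AE9a+Meis2 were 10.8, 18.2 and 17.2 FPKM and the order of AE+Meis2 below the others was as before.

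**Figure D1:**
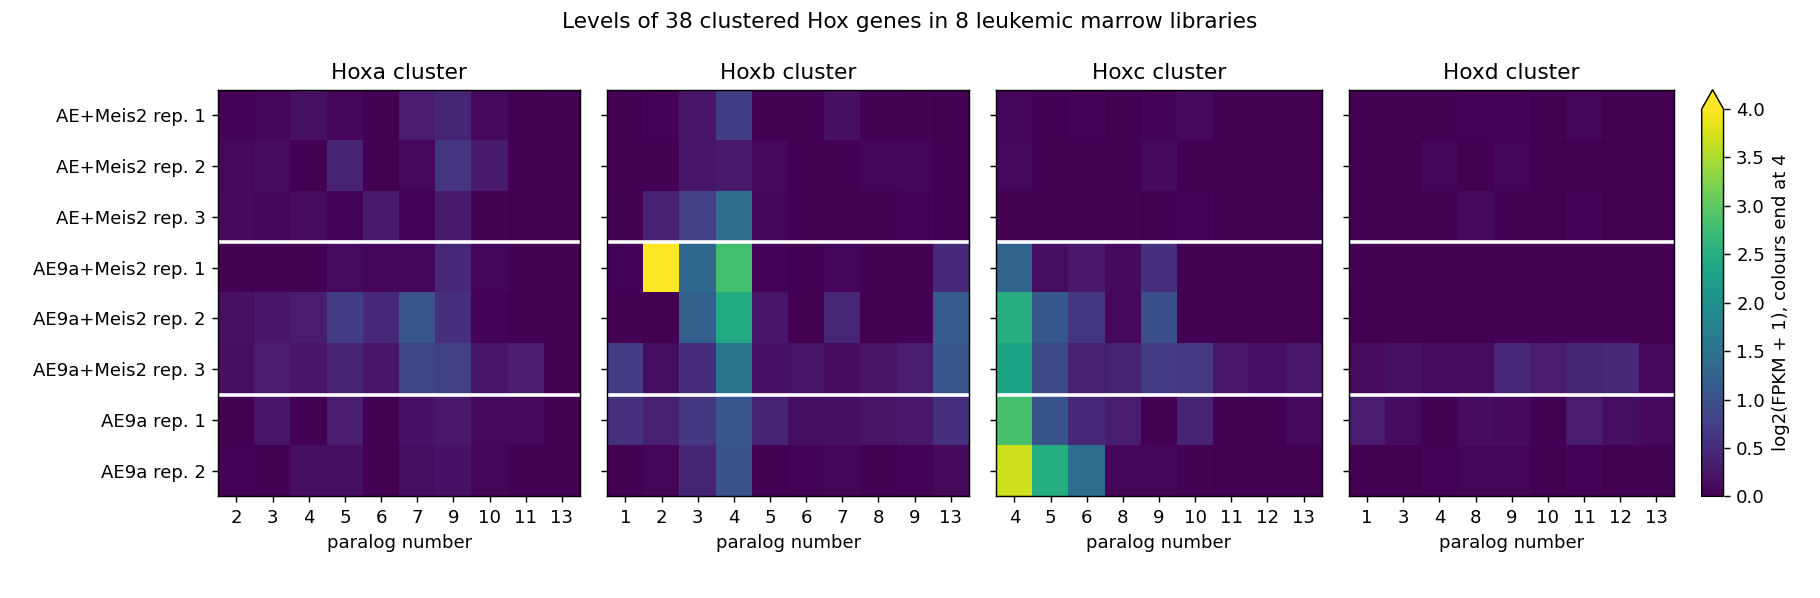
Level of 38 of the 39 clustered Hox genes as log2(FPKM + 1), with libraries in rows, grouped by white lines, and genes in columns by cluster and paralog number; the colour scale ends at 4 and an arrow marks values above it. Signal sits in the columns Hoxb4 and Hoxb3 and, in the 5 libraries with AE9a, in Hoxc4 to Hoxc6, while Hoxb2 is bright in a single library and the Hoxd panel is dark.

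By cluster, Hoxc held the signal that differed most in order. Summed Hoxc levels were 0.181, 0.128 and 0.0582 FPKM in AE+Meis2, 2.29, 7.36 and 7.21 in AE9a+Meis2, and 8.13 and 18.4 in AE9a. The 3 groups did not overlap, and all AE9a libraries were above all AE9a+Meis2 libraries. The 8.13 FPKM of AE9a replicate 1 was close to the 7.36 FPKM of AE9a+Meis2 replicate 2, however. AE9a replicate 1 had values in silent families, and only Hoxc4 exceeded their 99th percentile there, 1.46 FPKM. The order of these 2 groups in the Hoxc sum is therefore uncertain. Hoxb without Hoxb2 ran differently, with 0.982, 0.542 and 2.48 FPKM in AE+Meis2, 7.93, 7.61 and 4.95 in AE9a+Meis2, and 3.48 and 1.51 in AE9a. AE9a+Meis2 was thus above both other groups. The 4.95 and 3.48 FPKM, however, came from AE9a+Meis2 replicate 3 and AE9a replicate 1, which had values in silent families. Only Hoxb4 in the first exceeded the 99th percentile of those families, so the place of both libraries in this order is uncertain. Hoxa sums overlapped between all groups, from 0.770 to 1.33 FPKM in AE+Meis2, 0.587 to 3.27 in AE9a+Meis2 and 0.636 to 1.06 in AE9a. Hoxd stayed at or below 0.157 FPKM in 6 libraries and reached 1.74 FPKM in AE9a+Meis2 replicate 3, with 0.897 FPKM in AE9a replicate 1, the same libraries in which silent families were above 0.

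By paralog position, the anterior genes held the largest summed level in 7 of the 8 libraries, 47.9% to 98.4% of all Hox FPKM. The exception was AE+Meis2 replicate 2, with 33.5% anterior and 43.7% posterior. Anterior sums were 0.702 to 2.95 FPKM in AE+Meis2, 8.27 to 112 in AE9a+Meis2, and 9.19 and 13.7 in AE9a. Paralog 4 alone (Hoxa4, Hoxb4, Hoxc4 and Hoxd4) gave 0.846, 0.328 and 1.79 FPKM in AE+Meis2, 7.39, 9.36 and 6.20 in AE9a+Meis2, and 7.24 and 13.2 in AE9a. AE9a+Meis2 and AE9a overlapped in this sum, while its main parts, Hoxb4 and Hoxc4, each separated them: Hoxb4 was the larger share of AE9a+Meis2 replicate 1, and Hoxc4 was most of both AE9a libraries. Central sums were at most 0.479 FPKM in AE+Meis2, 0.626 to 4.34 in AE9a+Meis2, and 2.79 and 6.67 in AE9a. Posterior sums were 0.336 to 0.917 FPKM in AE+Meis2, 1.22 to 5.55 in AE9a+Meis2, and 1.85 and 0.438 in AE9a, and overlapped between AE9a and both other groups. The 5.55 and 1.85 FPKM came from AE9a+Meis2 replicate 3 and AE9a replicate 1. Genes of silent families had a mean of 0.461 and 0.597 FPKM each there, so these 2 sums cannot be told apart from that level. The same holds for the central sums of these 2 libraries, 3.45 and 2.79 FPKM.

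Group differences were tested with limma on log2(FPKM + 1) over all 12565 genes with at least 1 FPKM in at least 2 libraries, with Benjamini-Hochberg adjustment and a threshold of 0.05. Only 5 members passed the filter on low values: Hoxb3, Hoxb4, Hoxb13, Hoxc4 and Hoxc5. The differences taken were AE9a+Meis2 minus AE9a (the Meis2 comparison), AE+Meis2 minus AE9a+Meis2 (the fusion comparison) and AE+Meis2 minus AE9a (the joint comparison, in which both the fusion and Meis2 differ). None of the 5 was called in any of them by limma, where 0.0478%, 0.0398% and 0.0318% of all genes tested were called. At an unadjusted p under 0.05 the counts were 2, 3 and 2 of the 5, against 3.06%, 7.15% and 5.98% of all genes tested, but a member could pass the filter through the group where it is high, so these counts carry no weight. With no filter, 38 members could be tested and again 0 were called (0.0224%, 0.0224% and 0.00448% of 22314 genes were), with 4, 4 and 3 of the 38 at an unadjusted p under 0.05, against 2.16%, 4.32% and 4.11% of those genes. The lowest adjusted p of a member in that unfiltered limma fit was 1, 0.489 and 0.270 in the 3 comparisons. The log2(FPKM + 1) scale understates the change of low genes. Even the transduced Meis2 was not called in the Meis2 comparison, so a member that was not called is not shown to be unchanged.

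Whether the libraries of 2 groups overlapped was counted for the 38 members above 0. In the fusion comparison, 7 members were lower in every AE+Meis2 library (Hoxb4, Hoxb13, Hoxc4, Hoxc5, Hoxc6, Hoxc8 and Hoxc9) and 0 were higher, where 5.78% and 4.26% of the 22314 genes above 0 in any library did so. In the joint comparison, 7 were lower (Hoxb6, Hoxb13, Hoxc4, Hoxc5, Hoxc6, Hoxc8 and Hoxd13) and 2 higher (Hoxa2 and Hoxa9), against 9.28% and 5.95% of those genes. In the Meis2 comparison, 4 were higher (Hoxa6, Hoxa9, Hoxb4 and Hoxc9) and Hoxc4 was lower, against 8.01% and 7.39%. In the fusion comparison 5 of the 7 lower members lay in Hoxc, and none of the 9 Hoxd or 11 Hoxa genes separated the groups. In AE9a+Meis2 replicate 3, which had values in silent families, Hoxc6, Hoxc8 and Hoxc9 were under their 95th percentile, 0.658 FPKM. Hoxb13 and Hoxc5 were under their 99th percentile there, 1.16 FPKM, so these separations are uncertain. In AE9a replicate 1 only Hoxc4 exceeded the 99th percentile. Some of these separations rest on very few fragments in libraries of unequal depth. Hoxb13 and Hoxc8 had an estimated 2 fragments each in AE9a replicate 2, at 0.0642 and 0.0335 FPKM. In AE+Meis2 replicate 2 a single fragment would be worth more, 0.0934 and 0.0488 FPKM. Hoxb6 and Hoxd13 had an estimated 1 fragment in each AE9a library, and Hoxa2 had 1, 1 and 3 in AE+Meis2 against 0 and 1 in AE9a. Hoxa6 had 1, 12 and 2 in AE9a+Meis2 against 0 in both AE9a libraries. Hoxa9 separated AE+Meis2 from AE9a by 0.219 against 0.214 FPKM. Each pair of comparisons shares the libraries of 1 group.

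Hoxc4 was the member with the clearest order. It encodes the anterior-most homeodomain protein of its cluster and is known from lymphoid and early blood cells. The gene lies at chr15:103018934-103036852 in mm10 (GENCODE M21, plus strand). Hoxc4 was 0.0479, 0.0591 and 0 FPKM in the AE+Meis2 libraries, which corresponds to an estimated 2, 1 and 0 fragments. It was 1.45, 4.65 and 3.99 FPKM in AE9a+Meis2 (3.37 ± 1.69, SD, n = 3), or 109, 533 and 144 fragments, and 6.14 and 12.03 FPKM in AE9a (9.09 ± 4.16, SD, n = 2), or 85 and 593 fragments. Each group lay apart from the next, with AE+Meis2 at the level of single fragments, AE9a+Meis2 in the middle and AE9a on top.

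The differences of Hoxc4 did not pass in limma after Benjamini-Hochberg adjustment. On the log2(FPKM + 1) scale the joint comparison gave -3.22 ± 0.43 (SE, limma adjusted p = 0.14), with a 95% interval of -4.23 to -2.21. The fusion comparison gave -1.99 ± 0.38 (limma adjusted p = 0.30), and the Meis2 comparison gave -1.23 ± 0.43 (limma adjusted p = 1), or -0.80 without AE9a replicate 2. Leaving out the library labelled AE+Meis2 replicate 1, the joint difference was -3.23 and the fusion difference -1.996 (limma adjusted p = 0.13 and 0.31). With AE9a+Meis2 replicate 3 and AE9a replicate 1 both left out, for their values in silent families, the joint, fusion and Meis2 differences were -3.65, -1.85 and -1.81 (limma adjusted p = 0.56, 0.89 and 1). Hoxc4 was 3.99 and 6.14 FPKM in those 2 libraries, above the 99th percentile of silent families there, 1.16 and 1.46 FPKM.

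Hoxc5 and Hoxc6, the central neighbours of Hoxc4, had the same AE+Meis2 libraries at or near 0. Hoxc5 had no value above 0 in AE+Meis2, where a single fragment would be worth 0.0170, 0.0419 and 0.0155 FPKM. It was 0.104, 1.12 and 0.865 FPKM in AE9a+Meis2 and 1.02 and 4.59 FPKM in AE9a. These groups overlapped with each other but not with AE+Meis2. In AE9a+Meis2 replicate 3 and AE9a replicate 1, however, Hoxc5 was under the 99th percentile of silent families, 1.16 and 1.46 FPKM. The separation of Hoxc5 therefore rests on the other libraries, in AE9a on replicate 2 alone. The Hoxc5 differences were -1.75 ± 0.48 in the joint, -0.71 ± 0.43 in the fusion and -1.04 ± 0.48 in the Meis2 comparison (limma with Benjamini-Hochberg, adjusted p = 0.56, 0.77 and 1). Single AE9a libraries moved them: without AE9a replicate 2 the joint difference was -1.02 and the Meis2 difference -0.31, and without AE9a replicate 1 the latter was -1.77. Hoxc6 was 0.0305, 0 and 0 FPKM in AE+Meis2, 0.203, 0.556 and 0.283 in AE9a+Meis2, and 0.368 and 1.70 in AE9a. It was below the filter, and AE9a replicate 2 was highest for Hoxc4, Hoxc5 and Hoxc6 alike. In AE9a+Meis2 replicate 3 and AE9a replicate 1, Hoxc6 was under the 95th percentile of silent families, 0.658 and 1.01 FPKM. The level of Hoxc4 was 13.97, 4.15 and 4.62 times that of Hoxc5 in the AE9a+Meis2 libraries and 6.00 and 2.62 times in AE9a, so Hoxc4 was the higher in all 5 libraries. In GENCODE M21 the Hoxc5 locus (chr15:102967443-103017429) overlaps Hoxc6, Hoxc8, Hoxc9 and Hoxc10 on the same strand, so how fragments were divided between Hoxc5 and Hoxc6 is uncertain.

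**Figure D2:**
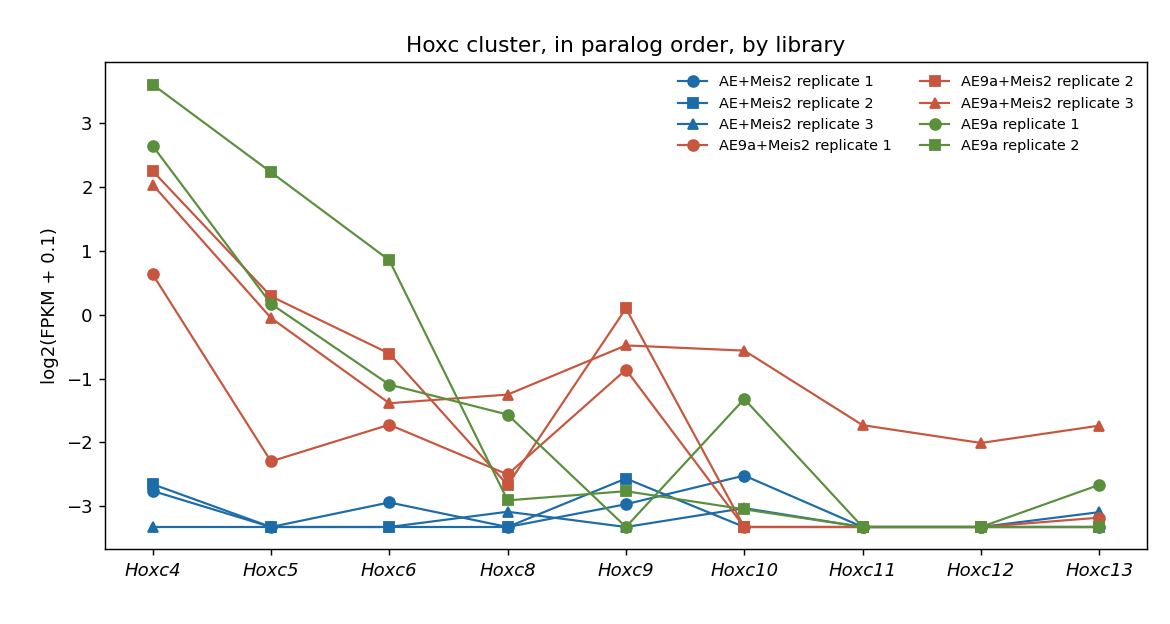
The 9 Hoxc genes in paralog order on the x axis and log2(FPKM + 0.1) on the y axis, with 1 line per library, coloured by group. The 5 libraries with AE9a start high at Hoxc4 and fall towards Hoxc8, the AE9a+Meis2 libraries come up again at Hoxc9, and the 3 AE+Meis2 lines stay at the floor.

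Further along the cluster the groups were ordered otherwise. Hoxc9, a posterior gene known for thoracic patterning, was 0.0280, 0.0691 and 0 FPKM in AE+Meis2, 0.451, 0.970 and 0.617 in AE9a+Meis2, and 0 and 0.0474 in AE9a. All 3 AE9a+Meis2 libraries were above all 5 others, with an estimated 29, 95 and 19 fragments against 0 to 2. In AE9a+Meis2 replicate 3, however, 0.617 FPKM was under the 95th percentile of silent families, 0.658 FPKM. That value cannot be told apart from the level of silent genes. Hoxc9 was below the filter of the main test. Hoxc8 stayed at or below 0.320 FPKM, and its highest values, 0.320 and 0.238 FPKM, came from AE9a+Meis2 replicate 3 and AE9a replicate 1, which had values in silent families. Hoxc10 was at most 0.577 FPKM and Hoxc11, Hoxc12 and Hoxc13 at most 0.202 FPKM, again in AE9a+Meis2 replicate 3. Hotair, a noncoding RNA between Hoxc11 and Hoxc12, was at most 0.392 FPKM.

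Hoxb4 and Hoxb3 were above 0 in all 8 libraries and highest in AE9a+Meis2. Hoxb4 is known for expanding blood stem cells when overexpressed, and Hoxb3 is expressed with it in early blood progenitors. Hoxb4 (chr11:96318267-96321638, plus strand) was 0.670, 0.224 and 1.68 FPKM in AE+Meis2 (0.860 ± 0.748, SD, n = 3), 5.94, 4.47 and 1.93 in AE9a+Meis2 (4.11 ± 2.03, SD, n = 3), and 1.09 and 0.999 in AE9a (1.05 ± 0.0675, SD, n = 2). Every AE9a+Meis2 library was above every other library, although the lowest of them, 1.93 FPKM, was close to the 1.68 FPKM of AE+Meis2 replicate 3. AE+Meis2 and AE9a overlapped. The 1.09 FPKM of AE9a replicate 1 was under the 99th percentile of silent families there, 1.46 FPKM. None of the Hoxb4 differences passed: 1.23 ± 0.46 in the Meis2, -1.45 ± 0.41 in the fusion and -0.21 ± 0.46 in the joint comparison (limma with Benjamini-Hochberg, adjusted p = 1, 0.54 and 0.98). The 95% interval of the last ran from -1.30 to 0.87, and its sign changed under quantile normalization (0.051) and without AE+Meis2 replicate 2 (0.050), while without AE+Meis2 replicate 3 it was -0.52.

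Hoxb3 followed Hoxb4 at a lower level. Hoxb3 was 0.176, 0.171 and 0.698 FPKM in AE+Meis2, 1.52, 1.35 and 0.428 in AE9a+Meis2, and 0.542 and 0.334 in AE9a. AE9a+Meis2 replicates 1 and 2 were above the rest and replicate 3 was among the others, so all groups overlapped. In AE9a+Meis2 replicate 3 and AE9a replicate 1, Hoxb3 was under the 95th percentile of silent families, 0.658 and 1.01 FPKM. The ratio of Hoxb4 to Hoxb3 was 1.31 to 4.52 over the 8 libraries, with Hoxb4 the higher in each. Differences of Hoxb3 were 0.51 ± 0.35, -0.62 ± 0.31 and -0.11 ± 0.35 in the order used for Hoxb4 (limma with Benjamini-Hochberg, adjusted p = 1, 0.73 and 0.98), the last turning to 0.19 under quantile normalization. The Meis2 difference was 0.76 without AE9a+Meis2 replicate 3, and the joint one ran from -0.29 (without AE+Meis2 replicate 3) to -0.0074 (without AE9a replicate 1) when single libraries were left out. In RefSeq the Hoxb3 locus spans Hoxb4 (chr11:96307101-96347930), and in GENCODE it overlaps the antisense RNA Hoxb3os. The library kit does not mark strand, so where Hoxb3 and Hoxb3os overlap their reads cannot be told apart by strand. Hoxb3 and Hoxb4 lie on the same strand, and how fragments were divided between them is uncertain.

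**Figure D3:**
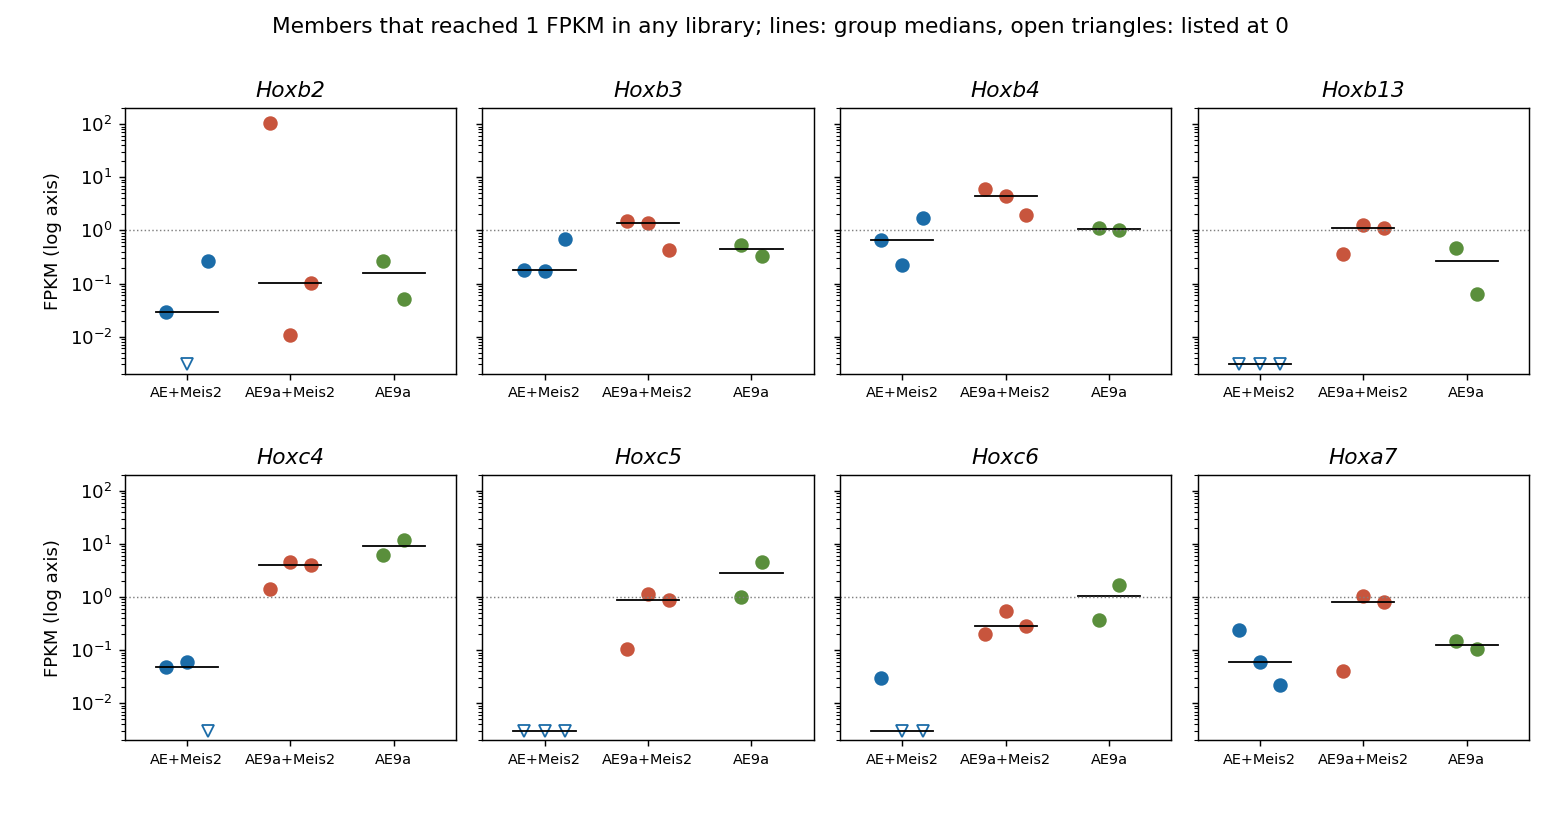
FPKM on a log axis for the 8 members that reached 1 FPKM in any library, with 1 point per library by group, group medians as lines, open triangles for values listed at 0 and a dotted line at 1 FPKM. Hoxc4 separates all 3 groups, Hoxb4 lies highest in AE9a+Meis2, and a single AE9a+Meis2 library holds Hoxb2 at 103 FPKM.

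Cell type markers were read beside these members. Monocyte and macrophage markers summed to 2712 to 5688 FPKM in AE9a+Meis2 and to 1617 and 1682 in AE9a, so they were high in the group with high Hoxb4. In AE+Meis2 they summed to 883 to 10437 FPKM, the highest in replicate 3, where Lyz2 alone, a lysozyme also made by neutrophils, was 9350 FPKM. Irf8 and Klf4, transcription factors of monocytes, were 16.0 and 9.32 FPKM in that library, below the 50.2 to 94.6 and 29.98 to 45.2 FPKM of AE9a+Meis2. Ccr2 and Cd68 were also below all AE9a+Meis2 libraries there, and Ly6c2 and Emr1 were within their range. Cd14, Csf1r and Mrc1, like Lyz2, were above them, at 401, 120 and 21.5 FPKM against at most 40.3, 107 and 11.1 FPKM. Of the 10 markers, 9 had a positive difference in the Meis2 comparison, 0 of them called by limma (5 at an unadjusted p under 0.05), with a median of 0.81 against -0.0011 for all genes tested. In the fusion comparison 8 of the 10 had a negative difference, as Hoxb4 did, 0 of them called (6 of the list at an unadjusted p under 0.05), with a median of -0.87 against 0.043. Stem and progenitor markers summed to 108 to 474 FPKM in AE+Meis2, 138 to 179 in AE9a+Meis2, and 170 and 275 in AE9a, and all groups overlapped. T and NK cell markers summed to 49.8 to 120 FPKM in AE+Meis2, 11.99 to 67.0 in AE9a+Meis2, and 23.4 and 48.7 in AE9a, and B cell markers to 37.0 to 72.0, 29.2 to 112 and 60.2 to 67.2 FPKM. Markers of mesenchymal stroma and bone summed to 36.7 to 96.8 FPKM in AE+Meis2, 17.4 to 29.1 in AE9a+Meis2, and 37.2 and 41.2 in AE9a, the reverse of Hoxc4 between the Meis2 groups. Neutrophil markers summed to 1796 to 177765 FPKM in AE+Meis2, 2294 to 37208 in AE9a+Meis2, and 5170 and 19776 in AE9a. They overlapped between all groups, as did the sums of erythroid, mast cell and endothelium markers. Megakaryocyte and platelet markers summed to 17.5 to 373 FPKM in AE+Meis2, 17.45 to 23.9 in AE9a+Meis2, and 25.9 and 34.4 in AE9a. No matched marker of these lists was at 0 in every library. The part of cell makeup in the Hox levels was not tested.

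Hoxb2 had the highest value of any member, in 1 library. The gene, a regulator of hindbrain and neural crest patterning, lies at chr11:96350525-96354012 on the plus strand and overlaps Hoxb3os on the other strand. Hoxb2 was 0.0297, 0 and 0.271 FPKM in AE+Meis2, 103, 0.0108 and 0.103 in AE9a+Meis2, and 0.269 and 0.0504 in AE9a. AE9a+Meis2 replicate 1 was 380-fold above the highest of the other 7, an estimated 6239 fragments against at most 10. Hoxb2 ranked 728 of 22772 genes in that library once small RNA entries were left out. It was the only gene of that library with at least 50 FPKM there and at most 0.5 FPKM in the other 7, limits chosen after its value was seen. The same count was 1 in the library labelled AE+Meis2 replicate 1, 1 in AE9a replicate 1 and 0 in the other 5. The neighbour Hoxb1 was 0.0253 FPKM in AE9a+Meis2 replicate 1 and Hoxb3 was 1.52, while AE9a+Meis2 replicate 2 had 1.35 FPKM of Hoxb3 with 0.0108 of Hoxb2. So no neighbour shared the level of Hoxb2. With 1 library above 1 FPKM, Hoxb2 did not enter the test, and no group mean is given.

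Hoxb13, the posterior end of its cluster and known from prostate and tail bud, was seen with a noncoding neighbour. Hoxb13 (chr11:96194316-96197447) stood at 0 in every AE+Meis2 library. The AE9a+Meis2 libraries had 0.358, 1.24 and 1.10 FPKM of it and the AE9a libraries 0.458 and 0.0642 FPKM. The 5 libraries with AE9a were thus above AE+Meis2 and overlapped with each other. The values in AE9a replicate 1 and AE9a+Meis2 replicate 3 were under the 99th percentile of silent families there, 1.46 and 1.16 FPKM. In AE+Meis2 replicate 2 a single fragment would be worth 0.0934 FPKM, more than the 0.0642 FPKM of AE9a replicate 2. The separation of AE9a from AE+Meis2 is therefore uncertain. Behind the Hoxb13 levels lay an estimated 17, 90 and 25 fragments in AE9a+Meis2 but 4 and 2 in AE9a. The noncoding RNA Gm11538 beside it was 0, 0 and 0.0668 FPKM in AE+Meis2, 1.97, 6.05 and 2.41 in AE9a+Meis2, and 1.11 and 0.186 in AE9a, with AE9a+Meis2 replicate 2 the highest for both. Differences of Hoxb13 were 0.58 ± 0.31 in the Meis2, -0.89 ± 0.28 in the fusion and -0.32 ± 0.31 in the joint comparison (limma with Benjamini-Hochberg, adjusted p = 1, 0.60 and 0.95). Without AE9a replicate 2 the Meis2 difference was 0.35 and the joint one -0.54, and without AE9a replicate 1 the joint one was -0.09. The genes between, Hoxb5 to Hoxb9, stayed at or below 0.345 FPKM, and Hoxb1 at or below 0.659 FPKM, its 2 values above 0.1 FPKM coming from the libraries with values in silent families.

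**Figure D4:**
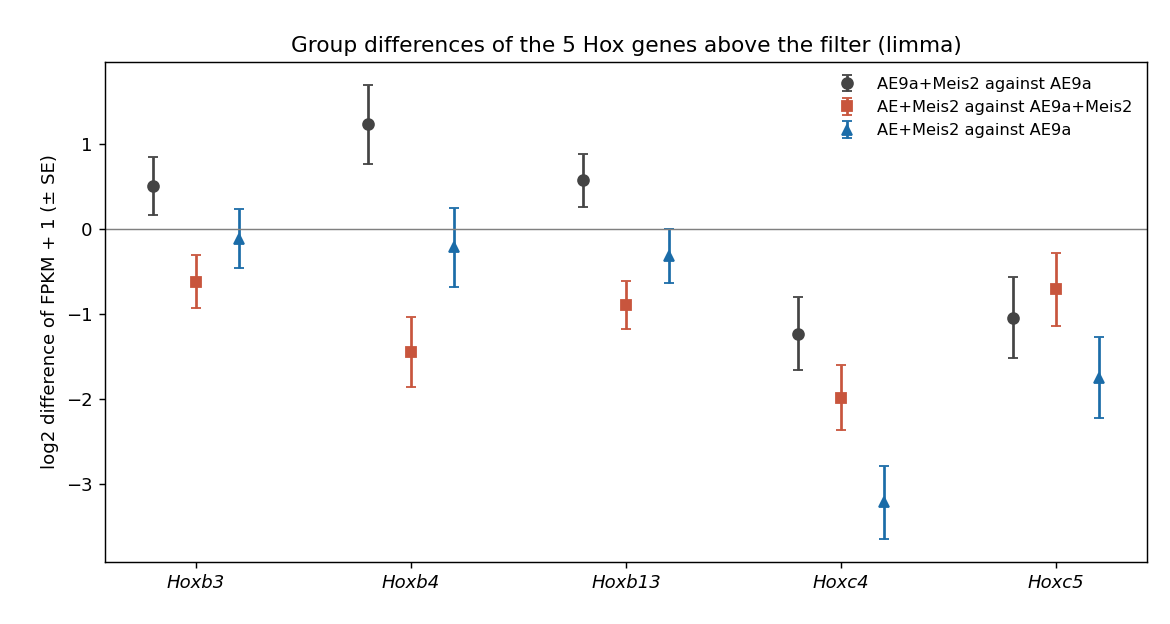
Log2(FPKM + 1) differences of the 5 members above the filter, on the y axis with SE from limma, for the 3 group comparisons (circles, AE9a+Meis2 against AE9a; squares, AE+Meis2 against AE9a+Meis2; triangles, AE+Meis2 against AE9a). Hoxc4 in AE+Meis2 against AE9a is the lowest point at -3.22, and the only differences above 0 are those of Hoxb3, Hoxb4 and Hoxb13 in AE9a+Meis2 against AE9a; no difference passed the adjusted threshold.

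The Hoxa cluster was low in all groups. Hoxa9, which drives leukemia together with Meis1 when overexpressed, was 0.331, 0.526 and 0.219 FPKM in AE+Meis2, 0.360, 0.450 and 0.698 in AE9a+Meis2, and 0.214 and 0.145 in AE9a. Both AE9a values were below the other 6, which overlapped between the Meis2 groups, but an estimated 1 and 3 fragments stood behind them, and fragment numbers of Hoxa9 are rough. Hoxa9 exceeded the 99th percentile of silent families in 5 libraries, the 3 of AE+Meis2 and replicates 1 and 2 of AE9a+Meis2. In AE+Meis2 replicate 2 it was the highest of all 39 members. Hoxa7 was 0.244, 0.0602 and 0.0222 FPKM in AE+Meis2, 0.0406, 1.07 and 0.791 in AE9a+Meis2, and 0.147 and 0.103 in AE9a, so 2 of 3 AE9a+Meis2 libraries were above the rest. The noncoding entry Mira, which in GENCODE M21 falls inside Hoxa7 (chr6:52214491-52221854, minus strand), was 0.689, 0.340 and 0.188 FPKM in AE+Meis2, 0, 5.14 and 2.79 in AE9a+Meis2, and 0.416 and 0.465 in AE9a. Hoxa7 and Mira were both highest in AE9a+Meis2 replicates 2 and 3. Hoxa5 reached 0.649 FPKM and Hoxa6 0.356 FPKM in AE9a+Meis2 replicate 2, while Hoxa2, Hoxa3, Hoxa4, Hoxa10 and Hoxa11 stayed at or below 0.238 FPKM.

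The Hoxd cluster, known for limb and trunk patterning and not for blood, was near 0. All 9 Hoxd genes were at or below 0.0787 FPKM in the 6 libraries without values in silent families, and their highest value anywhere was 0.365 FPKM, of Hoxd9 in AE9a+Meis2 replicate 3. Over all 39 members, 38 were above 0 in AE9a+Meis2 replicate 3, and AE9a replicate 1 had 30, against 16 to 28 in the other libraries. Of the 39, 21 had their highest value in AE9a+Meis2 replicate 3, and 5 were above 0 only in these 2 libraries (Hoxc11, Hoxc12, Hoxd3, Hoxd10 and Hoxd12). In the other 6 libraries 20 members stayed under 0.1 FPKM and 6 were at 0. Members above the 99th percentile of silent families numbered 3, 1 and 5 in AE+Meis2, 7, 13 and 2 in AE9a+Meis2, and 1 and 5 in AE9a. The 2 in AE9a+Meis2 replicate 3 were Hoxb4 and Hoxc4, and the 1 in AE9a replicate 1 was Hoxc4. The level of the other members in these 2 libraries cannot be told apart from that of silent genes.

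**Figure D5:**
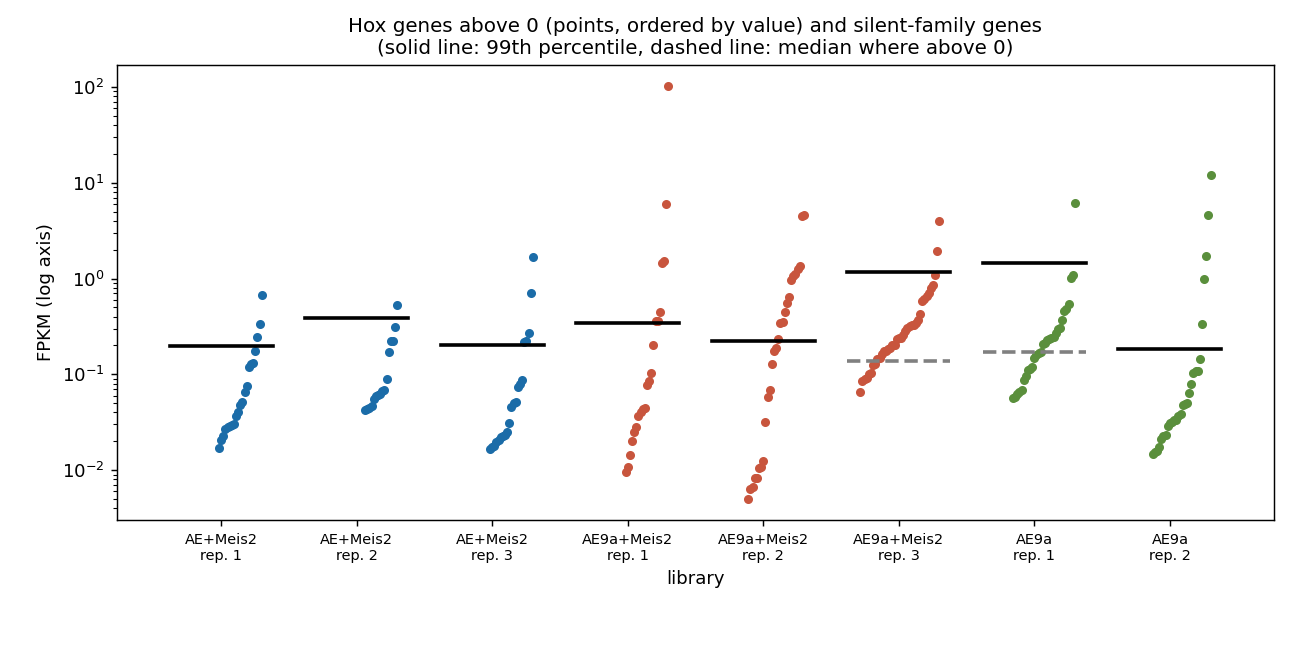
FPKM on a log axis of the Hox members above 0 in each library, ordered by value, with a solid line at the 99th percentile of 1543 genes from silent families and a dashed line at their median where it is above 0. The line stands at 1.16 and 1.46 FPKM in AE9a+Meis2 replicate 3 and AE9a replicate 1 and at or below 0.388 FPKM elsewhere, and 1 to 13 Hox genes lie above it.

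Regulators of Hox genes were read from lists. Of 20 Trithorax and MLL complex genes, all 20 were tested and 0 were called in any comparison by limma (0 also at an unadjusted p under 0.05), with median differences of -0.05, 0.18 and 0.22 for the Meis2, fusion and joint comparisons, beside -0.0011, 0.043 and 0.055 for all genes tested. Kmt2a, which maintains Hox expression, was 8.95 to 10.03 FPKM in AE9a+Meis2 and 10.6, 24.8 and 13.3 FPKM in AE+Meis2, a difference of 0.63 ± 0.31 (limma adjusted p = 0.73). Of 26 Polycomb genes, all 26 were tested and 0 were called (0, 1 and 0 at an unadjusted p under 0.05), with medians of -0.06, 0.14 and 0.07. The 1 was Mtf2, which recruits Polycomb repressive complexes to DNA, at 0.68 ± 0.28 in the fusion comparison (limma adjusted p = 0.69).

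Of 15 Cdx and retinoic acid genes, 5 were tested (Rara, Rarg, Rxra, Rxrb and Rxrg) and 0 were called by limma (1, 2 and 0 at an unadjusted p under 0.05). Rarg, a retinoic acid receptor, was 4.87, 2.99 and 3.55 FPKM in AE+Meis2, 10.3, 11.004 and 10.8 in AE9a+Meis2, and 8.29 and 4.74 in AE9a. AE9a+Meis2 was above the other groups, as for Hoxb4, and the difference of AE+Meis2 from AE9a+Meis2 was -1.31 ± 0.26 (limma adjusted p = 0.31). Rara differed by -1.24 ± 0.46 in the same comparison (limma adjusted p = 0.67). Cdx1, Cdx2 and Cdx4, which switch on Hox genes in early blood formation, were at 0 in the 6 libraries without values in silent families and at 0.249 to 0.741 FPKM in the other 2.

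Partners and downstream genes also had no member past the threshold. Of 9 TALE genes, 8 were tested and 0 called by limma (2, 2 and 3 at an unadjusted p under 0.05), the transduced Meis2 among them. Meis1, the usual partner of Hoxa9, was 3.67, 1.61 and 1.93 FPKM in AE+Meis2, 0.0228, 0.0449 and 0.491 in AE9a+Meis2, and 0.537 and 0.903 in AE9a, so it was highest in the group in which Hoxc4 and Hoxc5 were at single fragments or 0. All 18 known Hoxa9 and Meis1 targets were tested and 0 were called (1, 3 and 1 at an unadjusted p under 0.05), with medians of 0.15, 0.14 and 0.41. Flt3, a cytokine receptor of progenitors, was 7.58, 4.93 and 6.49 FPKM in AE+Meis2, 53.3, 28.1 and 13.1 in AE9a+Meis2, and 13.5 and 9.90 in AE9a. Its difference between AE+Meis2 and AE9a+Meis2 was -1.96 ± 0.47 (limma adjusted p = 0.42), and the libraries of these groups did not overlap. Ccl3, a chemokine, differed by 3.87 ± 0.83 in the Meis2 comparison (limma adjusted p = 0.73).

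Genes next to the clusters and other homeobox genes gave a reference. Of 23 flanking genes, 19 were tested and 0 called by limma (0, 0 and 1 at an unadjusted p under 0.05), with medians of 0.10, 0.09 and 0.08 and sums of 1186 to 1537 FPKM over the 8 libraries. Nfe2, an erythroid and megakaryocyte factor beside Hoxc, differed by 0.99 ± 0.46 in the joint comparison (limma adjusted p = 0.88), a positive value where Hoxc4 was at -3.22. Of 25 other homeobox genes of blood cells, 15 were tested and 0 called (1, 2 and 1 at an unadjusted p under 0.05), with medians of 0.13, -0.11 and 0.10. Tgif2, a TALE-class repressor, gave -1.10 ± 0.29 in the Meis2 comparison (limma adjusted p = 1). Of the noncoding entries of the clusters, 11 of 17 named were in the table and Mira alone was tested, at 0.99 ± 0.70, -1.04 ± 0.62 and -0.05 ± 0.70 in the order above (limma with Benjamini-Hochberg, adjusted p = 1, 0.76 and 1.00). The microRNA genes Mir10a, Mir10b, Mir196a-1, Mir196a-2, Mir196b and Mir615 were listed at 0 in every library; entries this short are poorly measured in such libraries.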

How the data were processed

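RNA extracted with TRIzol was made into libraries with the TruSeq RNA v2 kit, per the labels' protocols. The authors deposited 1 table of FPKM, made with TopHat, Cufflinks and Cuffdiff on mm10, per the submitters' processing notes. Versions, annotation and strand settings: not given in the sources used here. Groups and replicate numbers came from sample titles. FPKM was taken to log2(FPKM + 1), genes with at least 1 FPKM in at least 2 libraries (12565) were kept, and group means were fitted to the 8 libraries together with limma 3.58.1 in R 4.3.3, with an intensity trend and 5 residual degrees of freedom (2.29 more from the prior). P-values are two-sided and Benjamini-Hochberg adjusted over all genes tested, ± is the SE of a difference, and 0.05 is the threshold. The fit was tested on simulated data. Deposited FPKM holds no counts. Where a gene's low values share a fixed step, that step was taken as 1 fragment: 32 of the 38 members above 0 had such steps and 6 were rough, from transcript length. Depths are rough, and no counting interval is given. Percentiles of Hoxb2 leave out 1225 small RNA entries. Coordinates are from GENCODE M21, promoters from RefSeq. Values are printed in every library for each member with 1 FPKM anywhere or past the filter, and a few others (Hoxa9, Hoxc9, Mira and Gm11538) chosen after their values were seen; each list gives its genes of smallest p, of which some are printed. A member is not reported here by itself, though counts and sums include it. Members and lists were chosen with earlier results of these data known. Alternatives were 20 per comparison. Plots were drawn with matplotlib 3.10.9, and tables made with NumPy 2.4.6 and pandas 2.3.3 under Python 3.11.15.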

Additional observations from a re-analysis of the deposited data

How the results depend on the processing

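Under all 20 alternatives 0 members were called in each comparison, with 3 to 38 members tested (2 to 9, 3 to 23 and 0 to 10 genes called in all, for the Meis2, fusion and joint comparisons). Of 282 differences of members, 279 kept their direction and their side of the threshold. The 3 that changed sign, all in the joint comparison, were Hoxb3 at 0.19 and Hoxb4 at 0.051 under quantile normalization and Hoxb4 at 0.050 without AE+Meis2 replicate 2 (-0.52 to 0.050 over all omissions of 1 library); the cause was not tested. For Hoxc4 in the joint comparison the difference ran from -7.98 to -2.79 and the limma adjusted p from 0.050 to 0.82, lowest with a filter and pseudocount of 0.1 together, chosen after seeing the data, and highest without AE9a replicate 2. In the fusion comparison it ran from -6.46 to -1.76 (limma adjusted p of 0.092 to 0.89). With replicate number as a block, 0 members were called in each comparison, and 2, 5 and 0 genes in all. Deviations from the group means correlated at -0.025 to 0.13 in the 7 same-number pairs (median 0.031) and at -0.10 to 0.083 in the 14 others (median -0.026). Deviations of the 2 AE9a libraries mirror each other, so these values are not independent. They do not settle whether replicate numbers pair the libraries. Upper quartile scaling moved the median of all genes in the joint comparison to -0.11. Groups hold 2 or 3 libraries, and 7 to 19 members per library rest on an estimated 1 to 3 fragments, which limits what can be said of low members.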
